A study of Mus musculus with 4 samples.

Results

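The interferon-inducible GTPases described here are 9 mouse genes of the guanylate-binding (Gbp2, Gbp3), immunity-related GTPase (Igtp, Iigp1, Irgm1, Irgm2, Ifi47) and Mx (Mx1, Mx2) families, out of 17097 genes measured. They were taken by name, and every probe set annotated to a single one of these symbols was kept, which gave 11 probe sets of 45037. Expression was measured in ATDC5, a clonal chondrogenic line derived from a mouse teratocarcinoma, on 4 Affymetrix arrays. The 2 control arrays came from cells given a scrambled negative control shRNA duplex, and the 2 CHADL knockdown arrays from cells given a shRNA duplex specific for CHADL. Both groups received 30 nM of a 27-mer duplex with a lipid reagent, were moved to differentiation medium after 16 h and were collected as cells differentiated for 5 days. All cells thus carried a transfected RNA duplex, no untransfected group was analysed here, and the labels name 1 effective CHADL sequence, so the duplex and the loss of its target cannot be told apart.

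Interferons induce these GTPases strongly. Interferon-gamma acts through JAK kinases on promoters with GAS elements and induces the transcription factor IRF1. Type I interferon acts through a complex that holds IRF9 and binds interferon-stimulated response elements (ISREs), and IRF1 can bind those as well. IRG proteins of the effector class, such as Iigp1 and Ifi47, load onto the membranes of vacuoles that hold intracellular pathogens. The regulators Irgm1, Irgm2 and Igtp sit on the cell's own membranes and keep the effectors inactive there. GBPs coat pathogen membranes, and Mx proteins are dynamin-like GTPases that block viral ribonucleoproteins.

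Promoter sequences are shown first because most members with a promoter window share a motif. The genes were chosen as interferon-inducible and the ISRE answers to interferon, so the choice itself favours a high share of it. RefSeq windows of build GRCm38.p6, from 250 bases before to 50 bases after an annotated start, were available for 6 of the 9 genes. Both strands were searched for the ISRE letters GAAANNGAAA, which read TTTCNNTTTC on the other strand, and for the GAS letters TTCNNNGAA. The ISRE letters were found in 5 of the 6 genes, which are Gbp2, Gbp3, Irgm1, Igtp and Irgm2, or in 5 of their 7 windows, against 3.44% of all 32851 windows. They are not particular to the members: of the genes listed for comparison below, 3 of 4 other GBP and IRG genes and 8 of 16 other interferon-induced genes with a window also held them. They were not found in the window of Ifi47. The stretches below run 5′ to 3′ on the gene's strand, end before the annotated start, and carry the ISRE letters in capitals.
Gbp2, chr3:142620574-142620643, plus strand: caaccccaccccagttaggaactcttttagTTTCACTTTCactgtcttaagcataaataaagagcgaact
Gbp3, chr3:142559969-142560043, plus strand: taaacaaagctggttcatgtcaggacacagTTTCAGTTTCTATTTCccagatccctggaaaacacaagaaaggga
Irgm1, chr11:48871421-48871480, minus strand: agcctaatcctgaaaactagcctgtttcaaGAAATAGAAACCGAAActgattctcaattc
Igtp, chr11:58199492-58199555, plus strand: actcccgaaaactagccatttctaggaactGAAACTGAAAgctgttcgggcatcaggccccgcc
Irgm2, chr11:58214883-58214952, plus strand: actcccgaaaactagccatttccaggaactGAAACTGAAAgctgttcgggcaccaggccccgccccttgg

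The first match of each stretch began between 30 bases (Irgm1) and 64 bases (Irgm2) before the start. In Gbp3 and Irgm1 the capitals hold 2 overlapping matches. The stretches of Igtp and Irgm2 differ at 2 of the 64 bases they share. Of the 6 members with a window, only these held the GAS letters, as TTCTAGGAA in Igtp and TTCCAGGAA in Irgm2. The GAS letters lie just before the ISRE and do not overlap it. They occur in 8.30% of all windows. Among compared genes with a window, they were found in 2 of 4 other GBP and IRG genes. They were also found in 4 of 16 other interferon-induced genes and in 0 of 9 dynamin-like GTPases. Such matches describe letters and are not shown to be binding sites. By gene order in the same assembly, Igtp and Irgm2, Gbp2 and Gbp3, and Mx1 and Mx2 each lie within 4 annotated genes of each other. RefSeq lists Mx1 and Mx2 as transcribed pseudogenes in this C57BL/6J assembly, and several laboratory strains are known to carry defective Mx alleles.

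The targeted gene, Chadl, was dim and lay lower in both knockdown arrays, at log2 signals of 4.91 and 4.84 in controls 1 and 2 and of 4.29 and 4.64 in knockdowns 1 and 2 (limma log2 difference -0.41, SE 0.12, adjusted p = 0.728). Median signal over all probe sets was between 4.24 and 4.25 on every array. Knockdown 1 stood apart: over all genes the SD of the log2 difference was 0.20 between the 2 knockdowns and 0.10 between the 2 controls. Of the chondrocyte markers, Sox9, the master factor of chondrogenesis, and Col2a1, its type II collagen target, were at the 79.8th and 92.1th percentiles of gene signal, while Chad and Col10a1, a collagen of hypertrophic cartilage, were below the 20th. No batch label was given. Separate cultures are not stated for the arrays, titled biological replicates, so the p-values reflect array-to-array spread that may be technical, and 2 arrays per group limit the precision of every value.

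All 9 genes gave a higher signal in both knockdown arrays than in both controls, but no difference passed the test over all genes. Their mean signals lay between the 65.8th percentile (Mx1) and the 97.0th (Iigp1) of all genes. The groups did not overlap, with both knockdowns higher, for 9 of 9 members, against 21.2% of all genes, and 0 members had both lower, against 17.1%. The median difference of the members was 0.28 on the log2 scale, against 0.01 for all genes, and mean differences ran from 1.04-fold (Gbp3) to 1.39-fold (Mx1). At an adjusted p of 0.05 in limma 0 members were called, as were 0% of all genes, and the members' adjusted p ran from 0.615 to 0.839. Unadjusted p was under 0.05 for 6 members that were higher, against 4.15% of all genes, and for 0 that were lower, against 2.52%. The 6 were Gbp2, Igtp, Iigp1, Irgm2, Ifi47 and Mx2. An exact permutation test of 2 against 2 arrays cannot give a two-sided p below 0.333, so each gene was judged by the model fitted across all genes.

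**Figure D1:**
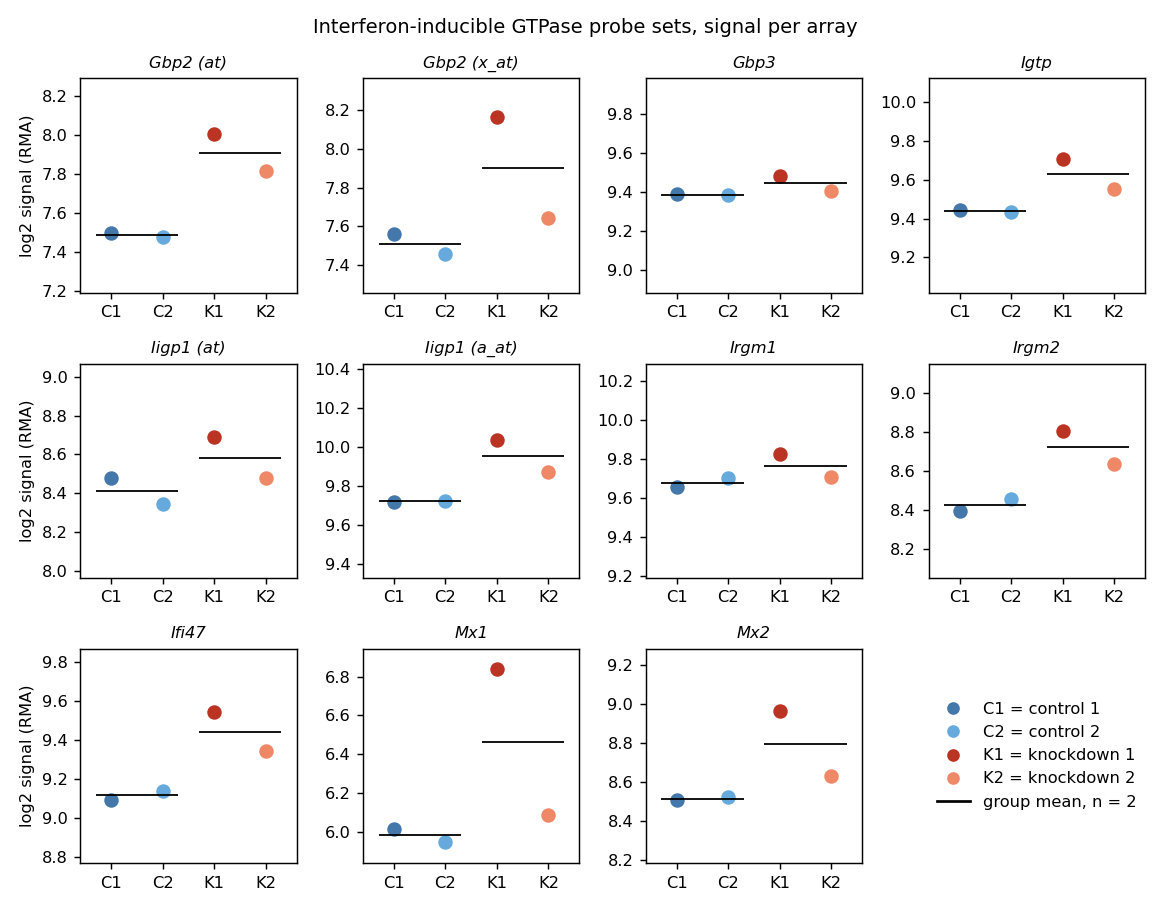
Log2 signal of each of the 11 probe sets (1 panel each, all y axes spanning the same range) on the 4 arrays, with lines at the group means of 2 arrays. Knockdown 1 is the highest array in every panel, and knockdown 2 lies above both controls in all panels but that of the Iigp1 probe set labelled at.

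Of the effector IRGs, Ifi47 (Irgd) had the smallest p of any member in the fit over genes. Controls 1 and 2 read 9.09 and 9.14 on the log2 scale, and knockdowns 1 and 2 read 9.54 and 9.34. The control gap of 0.05 was smaller than the distance of either knockdown from the higher control. The mean difference was 0.33 (SE 0.07, 95% interval 0.15 to 0.50), or 1.25-fold, with an unadjusted p of 0.00362 and an adjusted p of 0.615 (limma).

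Iigp1 (Irga6), a well-studied effector of vacuole disruption, was read by 2 probe sets. The brighter, whose suffix a_at marks probes shared by transcripts of 1 gene, read 9.72 and 9.73 in the control arrays, against 10.04 and 9.87 after knockdown. Both controls were nearly level and both knockdowns lay above them (log2 difference 0.23, SE 0.06, adjusted p = 0.694, limma over genes). The dimmer probe set read 8.48 and 8.34 in the control arrays, against 8.69 and 8.48 after knockdown. Here knockdown 2 lay within the control range, so this probe set was the only one of the 11 whose groups overlapped (log2 difference 0.17, SE 0.09, adjusted p = 0.712, limma over probe sets).

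Of the regulatory IRGs, Irgm2 read 8.40 and 8.46 in the control arrays, against 8.81 and 8.64 after knockdown. Both knockdowns exceeded both controls by more than the control gap of 0.06 (log2 difference 0.30, SE 0.07, 1.23-fold, unadjusted p = 0.00573, adjusted p = 0.663, limma). Igtp (Irgm3), its neighbour with the near-identical promoter stretch, read 9.44 and 9.43 against 9.71 and 9.55. Its groups were apart too (log2 difference 0.19, SE 0.06, 1.14-fold, adjusted p = 0.728, limma). Whether the probes of Igtp and Irgm2 read each other's transcripts was not tested.

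Irgm1, the regulator also known for its part in autophagy and mitochondrial control, differed least among the IRGs. It read 9.65 and 9.70 in the control arrays, against 9.82 and 9.71 after knockdown. Knockdown 2 was above control 2 by less than the gap between the controls, 0.05, so only knockdown 1 stood clear of them. The difference was 0.09 (SE 0.05, 95% interval -0.04 to 0.22, adjusted p = 0.778, limma), an interval that includes 0.

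The GBPs parted. Gbp2, which helps to open pathogen vacuoles, read 7.56 and 7.46 in the control arrays, against 8.16 and 7.64 after knockdown on its probe set of highest signal, a difference of 0.39 (SE 0.16, 1.31-fold, adjusted p = 0.744, limma over genes). That probe set carries the suffix x_at, given to probes that may also bind transcripts of other genes. The second Gbp2 probe set read 7.49 and 7.48 against 8.0 and 7.81. On it the controls were closer together and knockdown 2 stood clear of them, and its difference of 0.42 (SE 0.08, unadjusted p = 0.00125) was the member value with the smallest p among probe sets. It still missed the test over probe sets (adjusted p = 0.415, limma), in which 0 of the 11 were called, against 0.00222% of all 45037 probe sets. Of the 11 probe sets, 10 had both knockdowns above both controls, against 18.6% of all probe sets, and 0 had both below, against 19.9%. At an unadjusted p of 0.05, 7 of the 11 were higher, against 3.42% of all probe sets, and 0 lower, against 3.83%.

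Gbp3, also a coat GTPase, read 9.39 and 9.38 in the control arrays, against 9.49 and 9.41 after knockdown. Its order was that of the other members at a much smaller size, 0.06 (SE 0.05, 95% interval -0.06 to 0.18, adjusted p = 0.839, limma). The difference between the responses of Gbp2 and Gbp3 was not tested.

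The gap between the knockdown arrays was widest for Mx1, at 0.75. Mx1, the nuclear antiviral dynamin-like GTPase, read 6.02 and 5.95 in the control arrays, against 6.84 and 6.09 after knockdown. Knockdown 1 was 1.81-fold and knockdown 2 only 1.08-fold above the control mean, which gave the members' highest mean difference, 0.48, with the widest error (SE 0.22, 95% interval -0.05 to 1.01, adjusted p = 0.752, limma). Mx2, the cytoplasmic relative, read 8.50 and 8.52 against 8.96 and 8.63. Its groups were apart by more than the control gap of 0.02 (log2 difference 0.28, SE 0.11, adjusted p = 0.743, limma).

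**Figure D2:**
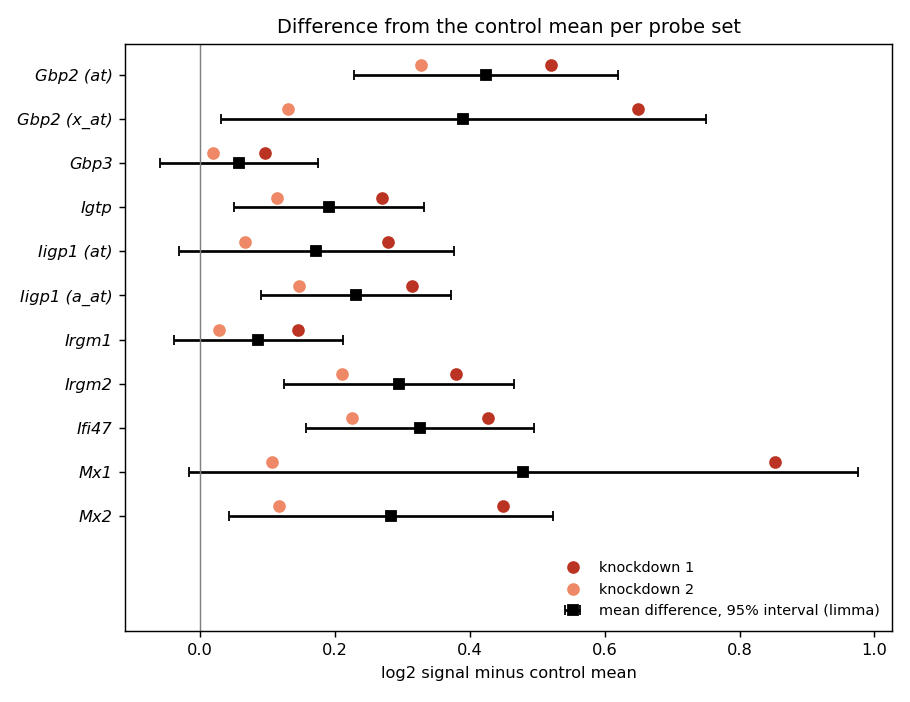
Difference of log2 signal from the control mean for each of the 11 probe sets. Circles are knockdown 1 and knockdown 2, squares are means of both with their 95% intervals from limma over all probe sets; the intervals of Gbp3, Irgm1, Mx1 and the dimmer Iigp1 probe set include 0.

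The members differed in size far more in knockdown 1 than in knockdown 2. Each gene taken at its probe set of highest mean signal, they lay above the control mean by 0.10 (Gbp3) to 0.85 (Mx1) in knockdown 1 and by 0.02 (Gbp3) to 0.23 (Ifi47) in knockdown 2. The second Gbp2 probe set stood at 0.52 in knockdown 1 and 0.33 in knockdown 2. Knockdown 1 was above knockdown 2 for 9 of 9 members, against 46.8% of all genes. It exceeded the higher control by more than the control gap for 9 of 9 members, against 25.5% of all genes, and knockdown 2 did so for 7 of 9, against 24.6%. The exceptions in knockdown 2 were Gbp2, on its brighter probe set, and Irgm1. On these probe sets Mx1 and Gbp2 were the furthest above control in knockdown 1, and Ifi47 and Irgm2 in knockdown 2, but with its second probe set Gbp2 was the furthest in knockdown 2.

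Calls among the members depended on which knockdown array was used. Without knockdown 2, 8 of 9 members passed over all genes (adjusted p from 4.21e-07 for Ifi47 to 0.00459 for Irgm1, limma), all higher, and Gbp3 did not (adjusted p = 0.0605). In that fit 15.1% of all genes passed, and 8.94% passed and were higher. Without knockdown 1, Ifi47 (adjusted p = 0.00221), Irgm2 (0.0150) and Iigp1 (0.0107) passed in limma, all higher, and 3.28% of all genes passed, 1.91% being higher. In both fits the lone knockdown array was taken to vary like the controls. Without control 1 or without control 2, 0 members and 0% of genes passed, while 1 and 2 members respectively were higher at an unadjusted p of 0.05.

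**Figure D3:**
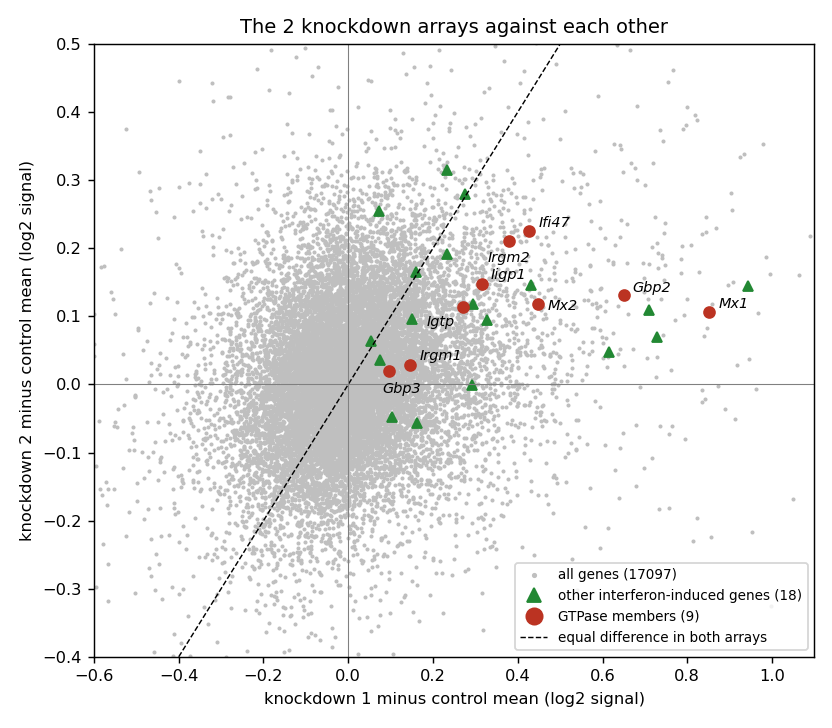
Difference from the control mean in knockdown 1 (x) and knockdown 2 (y), log2 signal, for all 17097 genes (grey, 193 of them outside the plotted range), 18 other interferon-induced genes (triangles) and the 9 members (circles). All members lie right of 0 and above 0, below the dashed line of equal difference.

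Relatives in the same families did not all follow. Of 18 further GBP, IRG and very large inducible GTPase genes listed, 8 were measured, 4 lay above both controls in both knockdowns and 2 below. Unadjusted p was under 0.05 for 3, each of them higher. The 3 were Tgtp1, Gbp7 and Gbp2b, and no very large inducible GTPase was among the 8 measured. The median difference of these 8 was 0.07. Tgtp1, Gbp7, Gbp10 and Gbp2b lay at or above the 88.6th percentile of signal. The dimmer Irgq, Gbp8, Irgc1 and Gbp4, named after their values were seen, lay at or below the 56.6th. Tgtp1 (an IRG effector, Irgb6) read 9.73 and 9.74 in the control arrays, against 10.41 and 10.06 after knockdown (log2 difference 0.50, SE 0.10, adjusted p = 0.615, limma). Gbp7 differed by 0.23, with both of its probe sets higher. Gbp10 lay the other way, at 8.98 and 8.96 against 8.47 and 8.96, with nearly all of the difference in knockdown 1 (log2 difference -0.26, SE 0.15, adjusted p = 0.763, limma). Both of its probe sets had a lower mean after knockdown. Chosen after their values were seen, Gbp2b read 8.15 and 8.12 against 8.81 and 8.45, and Gbp8 read 5.66 and 5.45 against 4.71 and 5.71. GBP genes are close copies of each other, and how far their probes cross-read was not tested.

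The ligands and receptors above the GTPases did not lie higher as a group. Of 12 measured genes 0 lay above both controls in both knockdowns, 3 lay below, 0 had an unadjusted p under 0.05 in limma, and their median was -0.03. The receptor chains Ifngr1, Ifngr2 and Ifnar1 differed by -0.09, -0.07 and -0.03, with 1 of 2 Ifngr2 probe sets of opposite sign. Il10rb, a chain of the type III interferon receptor, differed by -0.03. Ifnar2, a type I receptor chain, read 8.14 and 8.20 in the control arrays, against 8.49 and 8.17 after knockdown. The ligand genes were dim. Ifnb1 read 3.53 and 3.68 against 3.84 and 3.68, at the 20.0th percentile, and Ifng read 3.04 and 3.0 against 3.20 and 2.90, at the 3.18th, levels at which a change can hardly be seen on an array.

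The signal carriers between receptor and GTPase genes lay higher in knockdown 1. Of 12 measured genes, 6 were above both controls in both knockdowns and 0 below, and 3, each of them higher, had an unadjusted p under 0.05. None of the 12 passed the test over all genes. Their median stood 0.24 above the control mean in knockdown 1 and 0.08 in knockdown 2. Irf1 read 7.83 and 7.90 in the control arrays, against 8.66 and 7.97 after knockdown. Like Mx1, it was high in knockdown 1 and just above the controls in knockdown 2 (log2 difference 0.45, SE 0.20, adjusted p = 0.751, limma). Irf9, the DNA-binding part of the type I complex, read 8.55 and 8.58 against 8.68 and 8.68, alike in both knockdowns. Irf7, an amplifier of the type I response, differed by 0.25, and Usp18, which dampens type I receptor signalling, by 0.17. Stat2 differed by 0.15, and its second probe set had the opposite sign.

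Interferon-induced genes that are not GTPases also mostly read higher in both knockdowns, some alike in both and some mainly in knockdown 1. Of 18 measured, 15 lay above both controls in both knockdowns and 0 below, and 7, each of them higher, had an unadjusted p under 0.05. None of the 18 passed the test over all genes, and their median was 0.21. Knockdown 1 was above knockdown 2 for 13 of 18, against 9 of 9 GTPases. Ifit3 and Ifit1, RNA-binding antiviral proteins, stood at 0.28 and 0.23 above the control mean in knockdown 1 and at 0.28 and 0.31 in knockdown 2. Chosen after their values were seen, the interferon-gamma-responsive chemokine Cxcl9 and immunoproteasome subunits Psmb8 and Psmb9 stood at 0.94, 0.73 and 0.62 in knockdown 1. In knockdown 2 they stood at 0.14, 0.07 and 0.05. These values were nearer to those of Mx1 and of the brighter Gbp2 probe set. The second Gbp2 probe set, at 0.52 and 0.33, was less like them. Psmb9 had 1 of 3 probe sets of opposite sign. The third bright gene, the apoptosis factor Xaf1, differed by 0.06, and its second probe set had the opposite sign. Whether GTPases and other induced genes differed in this respect was not tested.

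**Figure D4:**
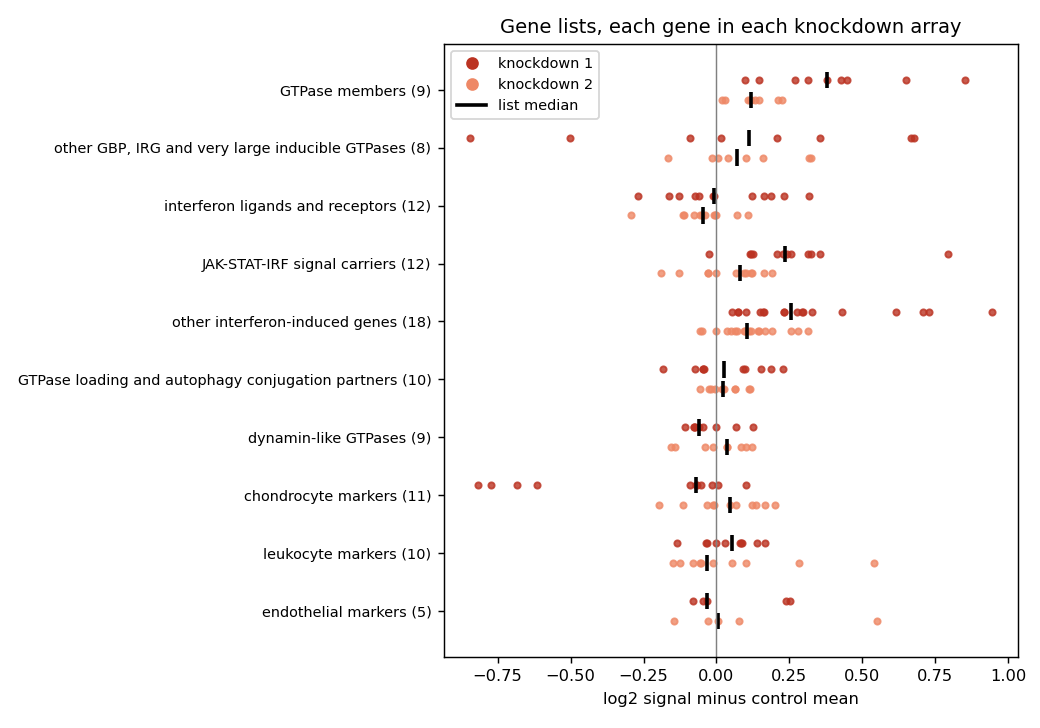
Difference of log2 signal from the control mean for each gene of 10 lists (number of genes measured in parentheses), in knockdown 1 and knockdown 2, with the list medians as bars. The GTPase members lie above 0 in both arrays, with medians of 0.38 and 0.12; the ligands and receptors have medians of -0.01 and -0.05.

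Markers of cell types were given the same reading, although ATDC5 is a clonal chondrogenic line and not a mixed tissue. In bulk RNA, fewer cells of a type and less RNA per cell cannot be told apart. Of 12 leukocyte markers listed, 10 were measured, and all lay below the 50th percentile of signal, with the pan-leukocyte gene Ptprc at the 8.48th. Their summed linear signal was 145 and 146 in the control arrays, against 147 and 147 after knockdown, and 2 of 10 lay above both controls. The brightest of them, Cd3e, Csf1r and Adgre1, differed by -0.04, -0.09 and -0.05, but the list median was 0.03. The 2 above both controls, the dim Lyz2 and Nkg7, differed by 0.31 and 0.09, and 1 marker lay below both. The 5 endothelial markers summed to 66.8 and 69.3 in the control arrays, against 73.3 and 71.5 after knockdown, with 1 of 5, the dim Vwf, above both controls. The brightest, Kdr, Cdh5 and Pecam1, differed by 0.11, -0.11 and 0.02. The 11 chondrocyte markers summed to 1712 and 1769 in the controls and to 1511 and 1914 in knockdowns 1 and 2. The array with the highest GTPase signals thus had the lowest sum, but a linear sum is weighted to the brightest genes. The median marker stood at -0.07 from the control mean in knockdown 1 and at 0.05 in knockdown 2. Of the 11, 1 lay above both controls in both knockdowns and 2 below. Of the brightest, the collagen gene Col11a1 read 9.60 and 9.64 in the control arrays, against 9.72 and 9.82 after knockdown, and Col2a1 read 9.01 and 9.08 against 8.23 and 9.17, while Sox9 differed by -0.0026 with 2 of 3 probe sets of the other sign. Ptprc, Lyz2, Nkg7, Vwf, Chad and Col10a1 were named after their values were seen. How these marker genes relate to the GTPase differences was not tested.

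The genes outside the families whose pattern came closest to the members' were measured by the root mean square distance over the 4 arrays from the members' median profile, which stood 0.38 above the control mean in knockdown 1 and 0.12 in knockdown 2. Among genes at or above the median signal, the 5 closest were Tec, a tyrosine kinase, Arid4b, a chromatin-associated protein, Tgfbi, a secreted matrix protein, Fam214b, and Fgf7, a fibroblast growth factor, at distances of 0.0090 to 0.015. The members themselves lay at 0.035 (Mx2 and Iigp1) to 0.24 (Mx1). The 5 genes were picked as the closest of many, so their lying nearer than the members says nothing about the members. With 4 arrays such closeness describes the arrays only.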

How the data were processed

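The authors deposited log2 signal values for each probe set after RMA, a method named in the submitters' processing notes without software or version. RMA makes array distributions alike and compresses changes of dim genes. That the scale is log2 was inferred from the values, 2.17 to 12.72. Of 45141 probe sets, 104 array controls were left out. Each gene was read by its probe set with 1 symbol and the highest mean signal. Knockdown was compared with control in limma 3.58.1 (R 4.3.3; linear model and eBayes, trend on, two-sided, Benjamini-Hochberg over all 17097 genes or all 45037 probe sets, threshold 0.05, intervals at 95%), with no dim filter; the step was tested on simulated data. Samples were grouped by title. The members, lists and alternatives were chosen with earlier results of these data known. Named genes were Chadl, all members, the 3 brightest of each list, fixed receptor and signalling genes, and the 5 genes closest in pattern; genes named outside this rule are said to be so in the text. Of the lists, GTPase-loading partners and dynamin-like GTPases are given under the other observations. Alternatives were quantile normalization, median centring, a dim filter at the 40th percentile, the mean of probe sets, other eBayes settings, the replicate number as a block, an adjusted p of 0.1, and leaving out each array. Promoter sequences are from RefSeq, GRCm38.p6, matched by symbol to 13605 genes.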

Additional observations from a re-analysis of the deposited data

How the results depend on the processing

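All 9 members were above both controls in both knockdowns also after quantile normalization, after centring and with the mean of probe sets. The share of all genes, 21.2% in the fit reported, was not computed under these settings, so the count has no comparison there. Under the other alternatives the groups of 9 non-overlapping genes cannot change sign, so their sign there says nothing about stability. The median difference of the members was 0.28 to 0.29 under the alternatives that kept all arrays, and 0.12 to 0.38 when 1 array was left out. Leaving out 1 array gave 0 to 8 called member genes, 0 to 10 called probe sets, and 1 to 9 members higher at an unadjusted p of 0.05. By array, 8 genes and 10 probe sets were called without knockdown 2, 3 and 4 without knockdown 1, and 0 and 0 without either control. Members higher at an unadjusted p of 0.05 numbered 3 without the trend, and 1 and 2 without control 1 and control 2, against 6 in the fit reported. Under the other settings with all arrays, an adjusted p of 0.1 included, 0 members were called, and 5 to 7 were higher at an unadjusted p of 0.05, where run. With the replicate number as a block 0 members were called and 7 were higher at an unadjusted p of 0.05. Deviations of same-numbered arrays did not go together (r = -0.0041 across genes). With 2 arrays per group this cannot show whether same-numbered arrays share more than a number. The cause of these shifts was not tested. The number of arrays limits all of them. The member genes called without 1 knockdown array have to be read against the shares of all genes called in those fits, given above. With all arrays kept, 0% of all genes tested were called at an adjusted p of 0.05 under each alternative. For called probe sets and for an unadjusted p of 0.05, no share over all probe sets or genes is given under the alternatives. Those member counts therefore have no comparison.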

Other observations

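Proteins that place IRG and GBP GTPases on vacuoles, the autophagy conjugation set, did not share the members' pattern. Of 10 measured, 4 lay above both controls in both knockdowns and 2 below, 0 passed an unadjusted p of 0.05 in limma, and the median difference was 0.04. The bright Gabarap, Map1lc3a and Atg3 differed by 0.09, 0.08 and 0.06, and the second Atg3 probe set had the opposite sign. Dynamin-like GTPases that interferon does not induce as a class had a median of 0.01 over 9 genes. Of these 1 lay above both controls and 3 below, and 0 were higher and 1 was lower at an unadjusted p of 0.05. The lower one was Atl3, an endoplasmic reticulum GTPase (log2 difference -0.12), while 3 of its 4 probe sets had the opposite sign. The mitochondrial GTPases Dnm1l and Opa1 differed by 0.01 and -0.04, each with probe sets of opposite sign.

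Genes with the ISRE letters as a whole differed little from the rest. Of 13605 genes with a promoter window, 483 that are no member held them, and their median difference was 0.03, against 0.0067 for the 13117 without them. Both knockdowns lay above both controls for 25.7% of the former and 21.2% of the latter, a difference that was not tested. Genes with the GAS letters, members left out, had a median of 0.0054 over 1190 genes.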
